A study of Rattus norvegicus with 24 samples.

Results

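Methotrexate (MTX) was compared with its saline placebo (PLA) after 34 days of treatment in the mononuclear cells of rat blood. The comparison rests on 4 of the 24 arrays of the series, the 2 labelled MTX at 34 days and the 2 labelled PLA at 34 days, chosen by the titles of the samples, and all 4 lay on 1 slide. All animals of both arms were female Wistar rats with collagen-induced arthritis (CIA), a model of rheumatoid arthritis raised by immunisation with bovine type II collagen, so the placebo arm carried the disease too. MTX and saline were both given by peritoneal injection, the animals of both arms were shaved, and both received ether for sampling. Total RNA was labelled with Cy3 and hybridised to one-colour Agilent arrays with 677 rat miRNAs. The same arms 1 hour into treatment (2 arrays each, on another slide) and, for the miRNAs named, the remaining groups of the series serve for reference. The labels give no age and tie no array to an animal. Per the labels the animals were sacrificed once their blood had been drawn, and p-values measure the spread between such samples.

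miRNAs are short RNAs that hold messenger RNAs in check by pairing with them, mostly through the seed, bases 2 to 8 of the miRNA. A hairpin precursor yields one miRNA from each of its arms, named 5p and 3p or, in the older names of this array, by the plain name and by a star. Methotrexate blocks dihydrofolate reductase, starves dividing cells of nucleotides, and is a mainstay of rheumatoid arthritis therapy. Blood mononuclear cells are lymphocytes and monocytes, and miRNAs such as miR-150 (lymphocytes), the miR-142 arms (all leukocytes) and miR-223 (myeloid cells) are known to mark them.

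Among 210 miRNAs tested, 0 differed between MTX and PLA at 34 days after adjustment over all of them (0% called, smallest adjusted p 0.922 in limma), and 5 did at an unadjusted p under 0.05 (2.38%). miR-194, miR-409-3p, miR-339-5p and miR-339-3p were higher in MTX and miR-146b was lower. The sequences of the 4 that could be matched to RefSeq (GRCr8) are shown to identify them, with the seed in capitals. The array's plain names miR-194 and miR-146b were taken for the 5p arms, as current names have it.
miR-194: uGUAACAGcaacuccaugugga
miR-339-5p: uCCCUGUCcuccaggagcucacg
miR-339-3p: uGAGCGCCucgacgacagagcca
miR-146b: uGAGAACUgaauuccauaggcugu
The table holds miR-339-5p at chr12:20391410-20391432 and miR-339-3p at chr12:20391445-20391467, both on the plus strand and in 1 hairpin, so 2 of the 5 are arms of one precursor. miR-194 has 2 precursors, one on chr1 within 10 kb of that of miR-192 and one on chr13 within 10 kb of that of miR-215, and its mature sequence is the same from both. miR-146b lies at chr1:255144874-255144897 on the plus strand.

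The arrays differed before any comparison. Of the 677 miRNAs, 184 and 170 were detected on the MTX arrays and 153 and 151 on the PLA arrays, where detection is the call of the scanning software. The summed intensity of the detected miRNAs was 303079 and 194596 on the MTX arrays and 191876 and 181337 on the PLA arrays. Levels below are log2 of the intensity after each array was scaled to the same 75th percentile over the 132 miRNAs detected on all 24 arrays, with a floor at 2.53. miR-150 (12.42 and 13.08 in MTX, 13.31 and 13.23 in PLA), miR-142-3p (13.54 and 13.88, 13.64 and 13.42) and miR-223 (13.32 and 12.71, 12.80 and 13.04) were detected on all 4 arrays, and these miRNAs mark the cells that the label names. The miRNAs of muscle (miR-1, miR-133a, miR-133b, miR-206) and of neurons (miR-124) were detected on none of the 4. miR-451, which belongs to the red cell lineage, was detected on all 4 and ranked 2 of the 677 by mean level over them. It was the brightest miRNA on MTX replicate 2 and came after only miR-21 on both PLA arrays.

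The 2 MTX arrays were less alike than the 2 PLA arrays. Over the 143 miRNAs detected on all 4 arrays, Pearson's r across miRNAs, which are not independent replicates, was 0.969 between the MTX replicates and 0.995 between the PLA replicates. The median distance between replicates was 0.44 in MTX and 0.13 in PLA, and 17 miRNAs in MTX and 2 in PLA lay over 1 apart. MTX replicate 2 was closer to both PLA arrays (median distance 0.20 and 0.24) than to MTX replicate 1, and MTX replicate 1 lay 0.42 and 0.40 from them. Of the 143, 52 lay over 0.5 outside the PLA range on MTX replicate 1 and 12 on MTX replicate 2. Levels are therefore given for each MTX array, and many of the differences named below are also given without 1 array.

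The red cell miRNAs were among those with a wide gap between the MTX arrays. miR-451 was at 12.54 on MTX replicate 1 and 14.59 on MTX replicate 2, with 14.15 and 14.07 in PLA. miR-144, made from the same transcript, was at 7.92 and 9.996 in MTX and at 9.26 and 8.96 in PLA. For both, 1 MTX array lay below the PLA pair and the other above it, so the groups overlapped. Their differences were -0.55 (SE 0.94) and -0.15 (SE 0.95), and without MTX replicate 1 they were 0.48 and 0.89. miR-486, a further red cell miRNA, has no entry under that name on the array. miR-494, named after its values were seen, had the widest gap, with 7.46 and 9.55 in MTX and 8.80 and 8.75 in PLA. In the other direction miR-125a-5p was at 5.52 and 4.38 in MTX and at 4.64 and 4.66 in PLA, and miR-143 (likewise named afterwards) at 8.80 and 7.69 and at 7.57 and 7.76. The part of red cells left in the preparation, of depth and of labelling in the gap was not tested.

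**Figure D1:**
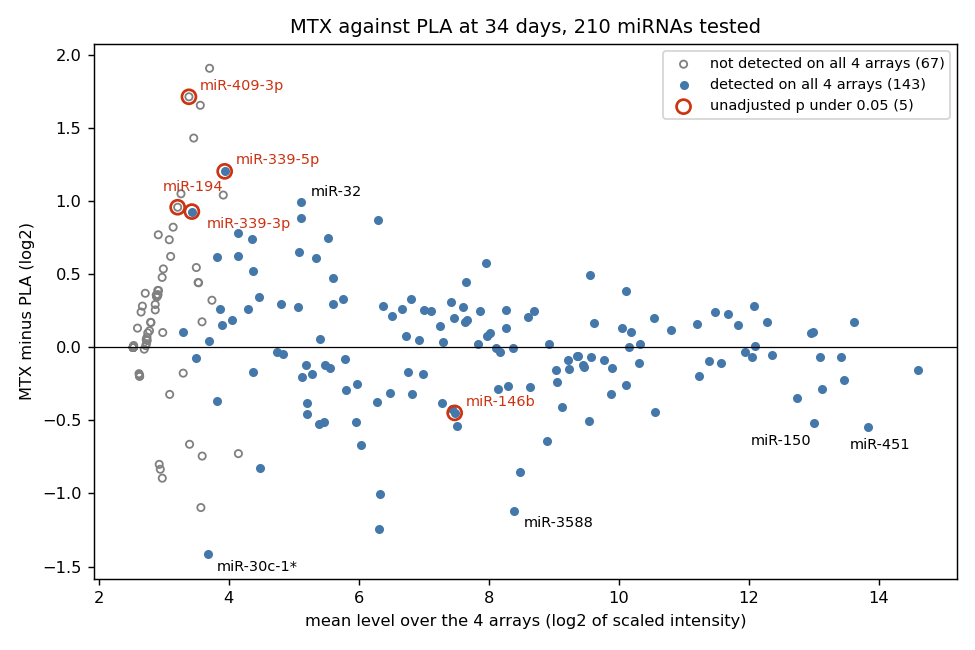
Each point is 1 of the 210 miRNAs tested, with its mean level over the 4 arrays at 34 days (log2 of scaled intensity, x) and the difference MTX minus PLA (log2, y). Filled points were detected on all 4 arrays, open points were not, and rings mark the 5 with an unadjusted p under 0.05, of which miR-146b at -0.45 is the only one below 0.

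Most differences between the arms were small. Over the 210 miRNAs the median difference was 0.03, the middle 50% ran from -0.18 to 0.28, and the extremes were -1.42 and 1.91. MTX was higher for 113 and lower for 87, the rest being at the floor in both arms. The split followed the scaling, with 173 higher and 31 lower when no scaling was used (median difference 0.45) and 79 higher and 122 lower when the percentile was taken over all miRNAs (median -0.09). Among the 143 miRNAs detected on all 4 arrays the median absolute difference was 0.25 and the median distance from the estimate to either limit of its 95% confidence interval 0.61. For 86 of them the interval lay within a fold of 2 in either direction, and for the rest it reached beyond that fold. The arms did not overlap for 33 miRNAs with MTX higher (15.7%) and for 37 with MTX lower (17.6%).

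miR-194, a miRNA known to be induced through p53 together with miR-192, was detected on both MTX arrays at 3.50 and 3.88 and on neither PLA array (listed at 2.79 and 2.68). The arms did not overlap, and both MTX values lay near the floor. The fitted difference was 0.96 (SE 0.33, unadjusted p 0.0114, adjusted p 0.922 in limma). Without MTX replicate 1 it was 1.15 and without MTX replicate 2 0.77. In the authors' table it was 0.21, and with double the floor 0.18. The MTX mean lay 1.76-fold above a nominal bound for PLA. The bound is the mean, over the PLA arrays, of the lowest detected signal or the listed value, whichever was higher. An undetected miRNA can lie above the lowest detected signal, so this fold and those below are not strict minima. They hold for the measured means under this scaling and make no allowance for the spread between samples. miR-194 was detected on 17 of the other 20 arrays of the series, with a median level of 3.81. Both MTX arrays thus sat within the range of the other arrays (2.53 to 4.18), and the 2 groups with no detection on either array were PLA at 34 days and healthy animals before therapy. MS, the arm stimulated by needle, was at 3.67 and 3.59 at 34 days on the same slide. miR-192 did not share the difference, with 4.56 and 4.02 in MTX, 4.32 and 4.60 in PLA and a difference of -0.17 (SE 0.30). miR-215, the third member of these clusters, was detected on 0 of the 24 arrays.

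miR-339 gave both of its arms. miR-339-5p was at 4.95 and 4.13 in MTX and at 3.45 and 3.22 in PLA, so both MTX arrays lay above both PLA arrays. Its difference was 1.21 (SE 0.54, 95% confidence interval 0.05 to 2.36, unadjusted p 0.0418, adjusted p 0.922 in limma). It was the only one of the 143 miRNAs detected on all 4 arrays to pass the threshold of the study, for which it took changes of more than 2-fold at an unadjusted p below 0.05 (0.699%). miR-339-3p was at 4.24 and 3.55 in MTX and at 3.12 and 2.81 in PLA, a difference of 0.93 (SE 0.41, unadjusted p 0.0402, adjusted p 0.922 in limma). For both arms the replicate with the higher total intensity, MTX replicate 1, was the higher one. Without it the differences were 0.80 and 0.58, and without MTX replicate 2 they were 1.61 and 1.28. Across the 12 groups the mean of miR-339-5p was lowest in PLA at 34 days (3.33 ± 0.16, SD, n = 2), followed by CIA before therapy (3.76 ± 0.63), and highest in MS at 34 days (4.94 ± 0.57) and healthy animals at 34 days (4.87 ± 0.14). MTX at 34 days (4.54 ± 0.58) lay within the spread of its neighbours in this order. Only MS of these shares the slide of MTX and PLA, and for the others the slide and the group cannot be told apart.

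miR-409-3p was at 3.90 and 4.59 in MTX and at the floor on both PLA arrays, where it was not detected. Its MTX mean lay 2.58-fold above the same nominal bound, and limma gave an unadjusted p of 0.0269 and an adjusted p of 0.922. The fitted difference was 1.72, and its size depended on the processing. It was 0.72 with double the floor, 0.06 by the mean spot signal and 0.16 in the authors' table. Without scaling it was 2.05 and with quantile normalization 1.43. miR-409-3p was detected on 16 of the other 20 arrays with a median level of 4.49, and on 1 of the 2 arrays of MS at 34 days.

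miR-146b, which shares its seed with miR-146a, a brake on inflammatory signalling that NF-kB induces, was the one lower in MTX. Its levels were 7.04 and 7.46 in MTX and 7.58 and 7.82 in PLA, so the arms did not overlap, although their nearest arrays lay closer together than the replicates of either arm. The difference was -0.45 (SE 0.19, 95% confidence interval -0.86 to -0.04, unadjusted p 0.0352, adjusted p 0.922 in limma). PLA replicate 2 was the highest and MTX replicate 1 the second lowest of all 24 arrays. Without scaling the difference was -0.01, since the MTX arrays were brighter as a whole, and without MTX replicate 1 it was -0.24. miR-146a, which differs beyond the seed, pointed the same way less clearly, with 8.37 and 9.47 in MTX, 9.52 and 9.15 in PLA and a difference of -0.41 (SE 0.53). Its arms overlapped, and without MTX replicate 1 the difference was 0.14.

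**Figure D2:**
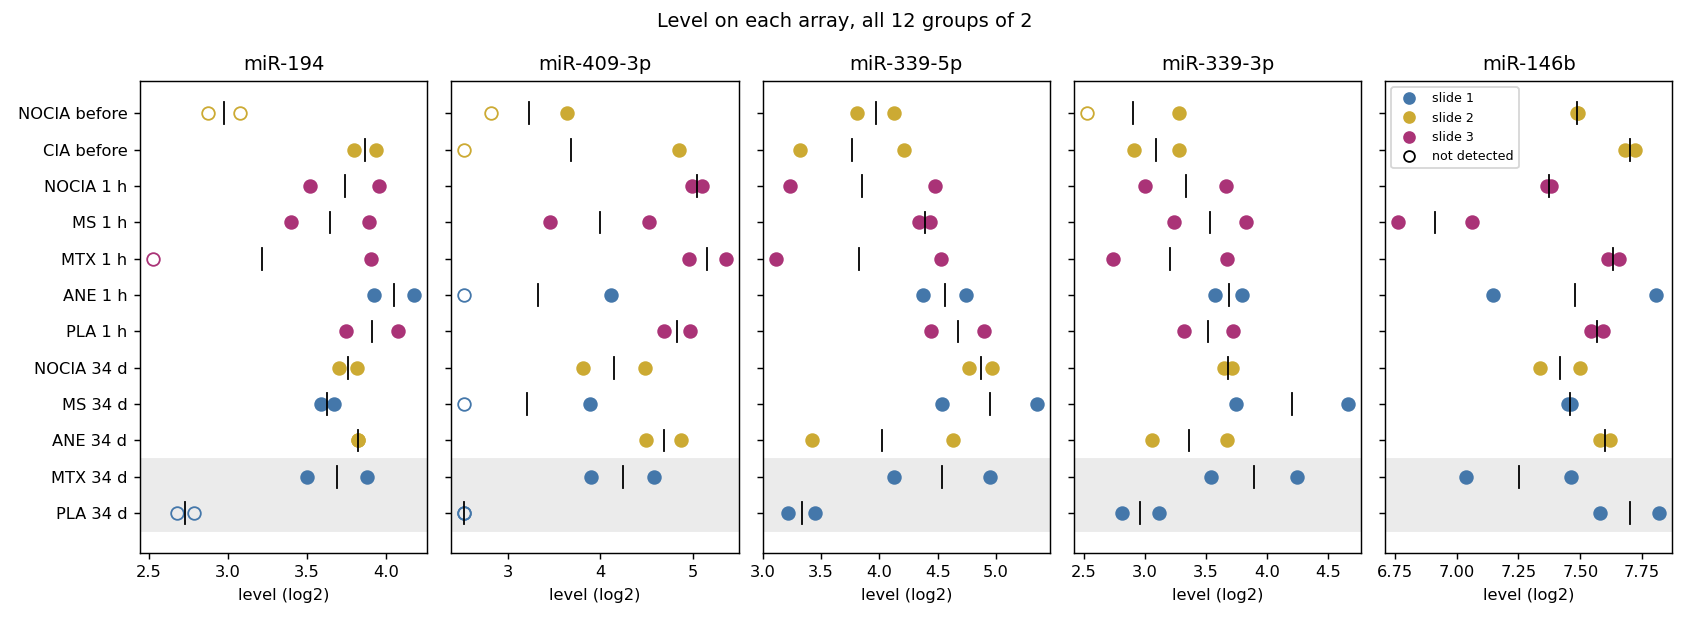
Levels (log2 of scaled intensity, x, each panel on its own range) of the 5 miRNAs with an unadjusted p under 0.05 on every array, for the 12 groups of 2 (y). Points are arrays, coloured by slide and open where not detected, short lines are group means, and the shaded rows are MTX and PLA at 34 days. PLA at 34 days holds the lowest mean of miR-339-5p (3.33) and no detection of miR-194 or miR-409-3p.

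Detection itself was lopsided between the arms. Of the 677 miRNAs, 48 were detected on more MTX than PLA arrays and 4 on more PLA than MTX arrays, while 478 were detected on none of the 4. Of the 48, 33 were found on 1 MTX array and neither PLA array, 25 of them on MTX replicate 1, the array with the highest summed intensity. 6 were detected on both MTX arrays and neither PLA array, and 0 the other way round. Beside miR-194 and miR-409-3p these were miR-3584-5p, miR-702-3p, miR-301b and miR-1*. miR-3584-5p was at 4.06 and 5.25 in MTX (3.44-fold above the nominal bound, unadjusted p 0.0607, adjusted p 0.922 in limma). miR-702-3p was at 4.10 and 4.68 (2.86-fold above it, unadjusted p 0.0533, adjusted p 0.922 in limma). The fitted differences of these last 2 were 1.91 and 1.66. Without MTX replicate 1 they were 2.51 and 1.95, and without MTX replicate 2 they were 1.31 and 1.37. They were 0.35 and 0.16 in the authors' table and 0.10 and 0.07 by normexp with quantile normalization and median polish. miR-301b was at 4.07 on MTX replicate 1. On MTX replicate 2 it was at the floor, below the PLA bound of 2.875, so no fold is given (adjusted p 0.922 in limma). miR-1* (2.94 and 2.596) was too close to the lowest detected signal for a fold. All 6 were detected on both PLA arrays at 1 hour. The part of brightness in these detections was not tested.

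Beyond these, the rule for naming took the 8 largest differences each way among miRNAs detected on all 4 arrays. After miR-339-5p, the higher ones included miR-32 (5.79 and 5.44 in MTX, 4.71 and 4.52 in PLA), miR-331 (5.86 and 5.25, 4.66 and 4.68), miR-664 (3.97 and 5.09, 3.85 and 3.64), miR-497 (6.35 and 5.46, 5.03 and 5.28) and miR-3085 (4.33 and 5.13, 4.13 and 3.84). For these 5 both MTX arrays lay above both PLA arrays, with differences from 0.74 to 1.00 and unadjusted p from 0.0777 to 0.164. As they were picked for large differences on the same arrays, the lack of overlap adds no support. It held for 15.7% of all miRNAs tested. The differences of miR-32, miR-331 and miR-497 were 0.82, 0.58 and 0.30 without MTX replicate 1 and 1.17, 1.19 and 1.19 without MTX replicate 2. The other two leaned on replicate 2, with 1.34 for miR-664 and 1.15 for miR-3085 without replicate 1 and 0.22 and 0.34 without replicate 2. miR-126, abundant in platelets and endothelium, was at 7.10 and 6.36 in MTX and 6.38 and 5.33 in PLA, a difference of 0.87 (SE 0.47) with overlapping arms. Without PLA replicate 2 its difference was 0.35, and without PLA replicate 1 it was 1.40.

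Among the lower ones, miR-30c-1*, the minor arm of its precursor, was at 2.54 and 3.40 in MTX and at 4.84 and 3.93 in PLA. Its difference was -1.42 (SE 0.92), with -0.99 without MTX replicate 1 and -1.85 without MTX replicate 2. Without PLA replicate 1 it was -0.96 and without PLA replicate 2 -1.87. In the authors' table it was -0.18. miR-3588 was at 7.82 and 7.85 in MTX and at 8.73 and 9.17 in PLA, and miR-500 at 8.03 and 8.09 and at 8.77 and 9.05. For these last 2 the MTX replicates were almost equal and both below PLA, with differences of -1.12 (SE 0.73) and -0.85 (SE 0.53). Neither changed by over 0.05 when MTX replicate 1 or 2 was left out, giving -1.10 and -1.13 for miR-3588 and -0.82 and -0.88 for miR-500. miR-3558-3p (5.47 and 5.89, 6.97 and 6.88), miR-99a (5.18 and 6.48, 7.16 and 6.50), miR-221 (5.16 and 6.23, 6.29 and 6.44) and miR-1949 (8.19 and 8.96, 9.24 and 9.19) did not overlap between arms either, and miR-193 (3.49 and 4.64, 4.63 and 5.15) did. Among the last 5 the lower MTX value was on replicate 1, and without that array miR-99a stood at -0.35, miR-221 at -0.13, miR-193 at -0.25 and miR-1949 at -0.26, against -1.04 for miR-3558-3p. Leaving out MTX replicate 2 instead gave -1.65, -1.21, -1.40, -1.02 and -1.45 for the same 5 in that order. All 8 had an adjusted p of 0.922 in limma. They too were picked for their size on these arrays, so the lack of overlap adds no support. Of all miRNAs tested, 17.6% were lower in MTX without overlap.

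**Figure D3:**
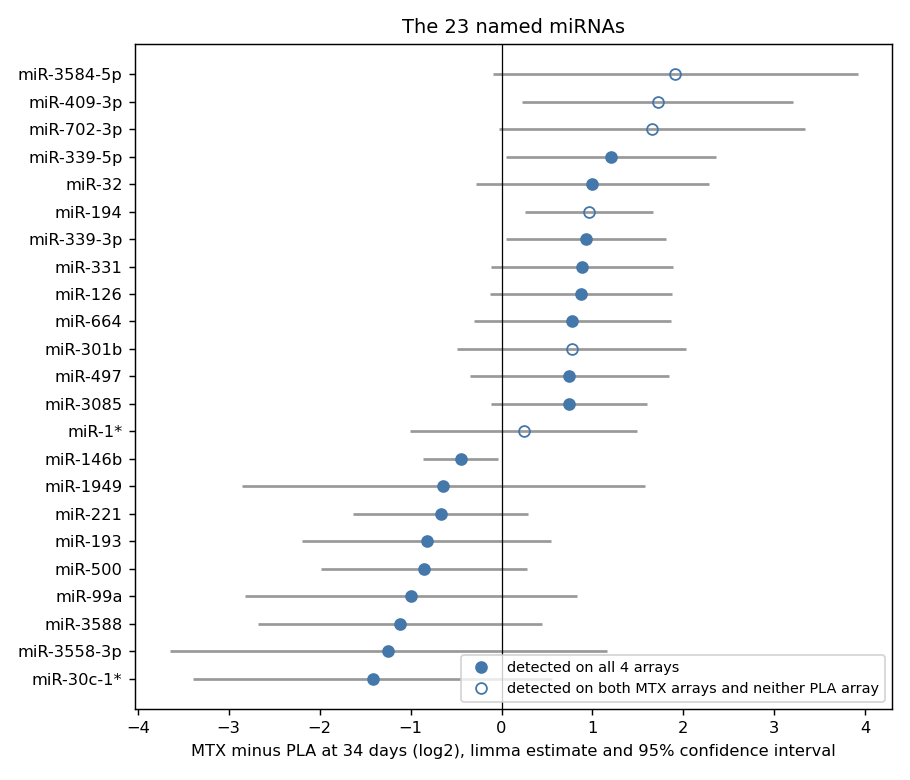
The difference MTX minus PLA at 34 days (log2, x) with its 95% confidence interval from limma for the 23 miRNAs that the rule names (y). Filled points were detected on all 4 arrays and open points on both MTX arrays and neither PLA array. The intervals of 5 miRNAs leave out 0.

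Of the 8 seeds that 2 or more matched miRNAs shared, 4 had members on both sides of 0 and 4 had all members on one side, as for miR-29a, miR-29b and miR-29c. The differences between members were not tested. miR-32 is shown with the miRNAs that carry its seed because its difference was among the largest while theirs were not.
miR-32: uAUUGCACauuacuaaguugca
miR-25: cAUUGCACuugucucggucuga
miR-92a: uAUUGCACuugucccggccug
miR-363: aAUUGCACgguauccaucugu
The capitals mark the shared seed. Against 1.00 for miR-32 (SE 0.60), miR-25 stood at -0.26 (SE 0.22), miR-92a at -0.07 (SE 0.21) and miR-363 at -0.42 (SE 0.47). A second set with members on both sides carries the seed of miR-16, a family that slows the cell cycle.
miR-497: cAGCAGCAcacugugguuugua
miR-195: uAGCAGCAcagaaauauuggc
miR-15b: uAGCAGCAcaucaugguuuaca
miR-16: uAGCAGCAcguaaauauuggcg
miR-497 (0.75, SE 0.51) and miR-195 (0.26, SE 0.18), whose precursors lie within 10 kb of each other on chr10, were higher, while miR-15b (-0.28, SE 0.17) and miR-16 (-0.23, SE 0.23) were lower. miR-15b was the one of these 4 with both MTX arrays (13.03 and 12.96) below both PLA arrays (13.21 and 13.34). None of the 8 was called. Sequences were matched for 64 of the 210 miRNAs tested, 44 by the exact name and 20 through current arm names.

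Lists of miRNAs with a known role or cell of origin were read against the median of all 210 (0.03), and 0 members of any list were called by limma's adjusted p. A scaling moves the medians of all lists together, so their side was read relative to the median of all miRNAs. Under the 4 other scalings each list of over 1 member kept that side, except under quantile normalization let-7 (0.10 from the median of all), the folate and p53 list (-0.02) and miR-17-92 (-0.01). The lymphocyte-rich list had the lowest median among lists of over 3 members. miR-150, which restrains c-Myb in lymphocytes, was lower on both MTX arrays than on both PLA arrays, with a difference of -0.52 (SE 0.89). miR-342-3p was at 10.22 and 10.45 in MTX and at 10.69 and 10.86 in PLA (-0.44, SE 0.48). miR-181a, a regulator of T-cell receptor signalling, was at 9.53 and 9.91 and at 10.09 and 9.99 (-0.32, SE 0.38), and miR-181b at 6.62 and 6.70 and at 6.97 and 6.98 (-0.32, SE 0.26). miR-181c and miR-181d were higher by 0.31 and 0.28. Of the 6 members, 4 were thus lower without overlap (17.6% of all miRNAs tested were), 1 was higher without overlap (15.7% were), and the median was -0.32. Without scaling miR-150, miR-342-3p, miR-181a and miR-181b stood at -0.07, -0.001, 0.12 and 0.13. There miR-181c and miR-181d stood at 0.76 and 0.72, and the median of all miRNAs was 0.45. The median of the list was below that of all miRNAs without each of the 4 arrays in turn too, at -0.14 from it without MTX replicate 1 and -0.45 without MTX replicate 2. In bulk samples fewer cells of a type and less RNA per cell cannot be told apart.

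The myeloid list (miR-223 with the miR-23, miR-27 and miR-24 clusters) had a median of 0.13, with 4 of 6 members higher. Of its members miR-27a was at 11.95 and 11.64 in MTX and at 11.60 and 11.53 in PLA, and the other 5 overlapped. Without MTX replicate 1 the median was -0.07, and without MTX replicate 2 it was 0.37. The miR-142 arms stood at 0.17 (SE 0.20) for miR-142-3p and 0.11 (SE 0.39) for miR-142-5p, both overlapping, and their median was 0.50 without MTX replicate 1 and -0.22 without MTX replicate 2. miR-122, the liver miRNA, was detected on MTX replicate 1 at 3.63 and on none of the other 3 arrays.

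In the inflammation list 1 of 5 members tested had an unadjusted p under 0.05, miR-146b, beside 2.38% of all miRNAs tested. miR-21, an abundant miRNA of activated leukocytes, was at 14.66 and 14.40 in MTX and at 14.41 and 14.96 in PLA (-0.16, SE 0.28). miR-125b-5p overlapped as well (-0.17, SE 0.48), as did miR-125a-5p (0.30, SE 0.43). The median of the list was -0.17, and it was -0.34 without MTX replicate 2 and -0.33 without PLA replicate 2. miR-132, miR-9 and miR-31 were detected on too few arrays to be tested, and miR-155 has no entry under that name. The miR-29 family, which targets collagens and regulates T cells, had a median of -0.13. miR-29a was at 12.40 and 12.75 in MTX and at 12.94 and 12.91 in PLA (-0.35, SE 0.36), while miR-29b and miR-29c overlapped. Without MTX replicate 1 the median of the 3 was 0.05, and without MTX replicate 2 it was -0.43.

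The miRNAs tied to folate enzymes and p53 are of interest beside an antifolate. miR-24, known to target dihydrofolate reductase, was at 11.57 and 11.004 in MTX and at 11.22 and 11.03 in PLA (0.16, SE 0.24). miR-34a, a direct p53 target, was at 8.04 and 8.09 in MTX and at 8.05 and 7.88 in PLA (0.10, SE 0.17), with a 95% confidence interval from -0.26 to 0.46. miR-34b and miR-34c ran from the floor to 4.21 and overlapped. Of the 6 members tested, 1 had an unadjusted p under 0.05 in limma, miR-194, beside 2.38% of all miRNAs tested. The others, miR-192 included, did not, and the list's median was 0.13. It was 0.31 without MTX replicate 1, 0.26 without PLA replicate 2 and -0.06 without PLA replicate 1.

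Among miRNAs of proliferation, 6 of 11 members of the miR-17-92 cluster and its paralogues were higher in MTX and 5 lower, with a median of 0.12. miR-19b was at 12.29 and 12.16 in MTX and at 11.997 and 11.89 in PLA (0.28, SE 0.20), and miR-19a at 9.95 and 9.67 and at 9.49 and 9.13 (0.50, SE 0.40). These 2 were the members higher without overlap (2 of 11, beside 15.7% of all miRNAs tested). The 3 lower without overlap were miR-93, miR-25 and miR-363 (3 of 11, beside 17.6%). Without MTX replicate 1 the median was -0.08, without MTX replicate 2 it was 0.32, without PLA replicate 1 0.19 and without PLA replicate 2 0.05. The miR-15/16 list of 5 had a median of 0.25, with 3 higher. That median was 0.015 without MTX replicate 1, without MTX replicate 2 it was 0.40 and without PLA replicate 1 it was 0.11.

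let-7 and miR-30, are families present at high level in most cells. The 8 let-7 members ran from -0.20 to 0.05 with a median of -0.06, of which let-7b (11.31 and 10.97 in MTX, 11.32 and 11.36 in PLA) did not overlap. MTX replicate 2 was below both PLA arrays for all 8, and without MTX replicate 1 the median was -0.22, against 0.13 without MTX replicate 2. The 5 miR-30 members ran from -0.14 to -0.0013 with a median of -0.06, which was -0.20 without MTX replicate 2 and 0.02 without PLA replicate 1.

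**Figure D4:**
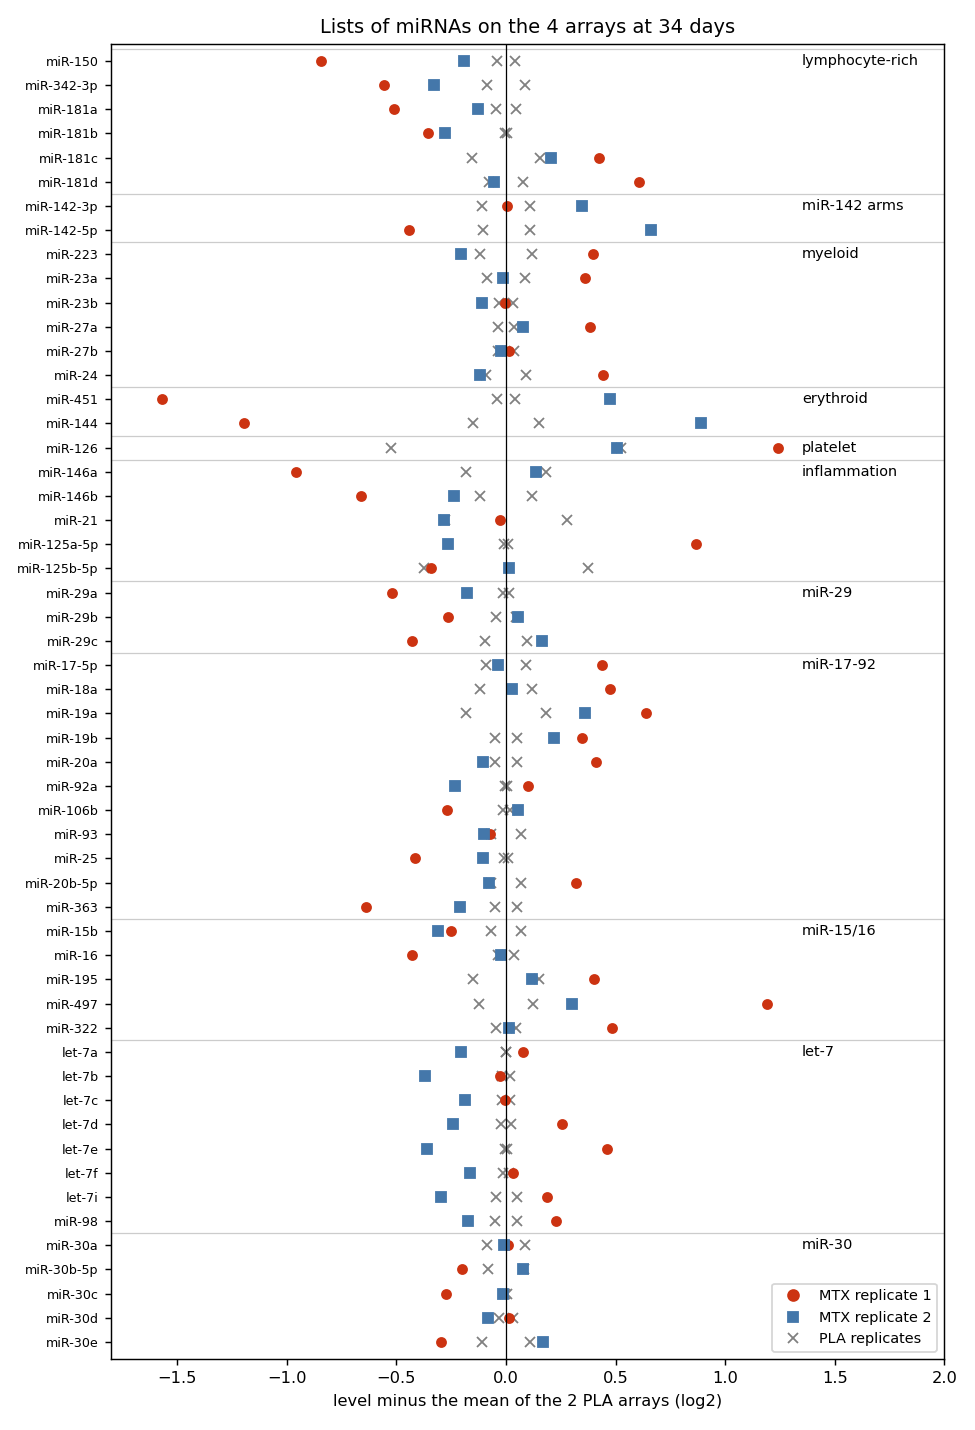
Level of each list member on the 4 arrays at 34 days, as its distance from the mean of the 2 PLA arrays (log2, x), for the miRNAs grouped by list (y). Circles are MTX replicate 1, squares MTX replicate 2 and crosses the PLA replicates. miR-451 and miR-144 lie on opposite sides of PLA on the 2 MTX arrays. Of the lymphocyte-rich list, miR-150, miR-342-3p, miR-181a and miR-181b lie below PLA on both, miR-181c lies above on both and miR-181d overlaps.

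The change from 1 hour to 34 days was tested as the difference between the 2 comparisons, which share no array and each lie within 1 slide. Of the 210 miRNAs, 0 were called (0%, smallest adjusted p 0.599 in limma), and 7 had an unadjusted p under 0.05 (3.33%). miR-194 was at 3.90 and at the floor in MTX at 1 hour and at 4.08 and 3.75 in PLA, a difference of -0.70 against 0.96 at 34 days. The change was 1.66 (SE 0.47, 95% confidence interval 0.66 to 2.65, unadjusted p 0.0032, adjusted p 0.599 in limma). In PLA both arrays detected it at 1 hour and neither at 34 days. Its difference at 1 hour came from MTX replicate 2, on which it was not detected. Without that array the difference at 1 hour was -0.01 and the change 0.97 (adjusted p 0.918 in limma). Without MTX replicate 1 at 1 hour the change was 2.34 and passed (adjusted p 0.0016 in limma), with the undetected array alone standing for MTX. miR-339-5p was at 4.53 and 3.11 in MTX and at 4.44 and 4.90 in PLA at 1 hour, so the arms overlapped, and its change was 2.06 (SE 0.76, adjusted p 0.599 in limma), or 1.34 without MTX replicate 2 at 1 hour. miR-146b was even between the arms at 1 hour (7.66 and 7.61, 7.54 and 7.59), and its change was -0.51 (SE 0.27), or -0.30 without MTX replicate 1 at 34 days. At 1 hour alone 0 miRNAs were called and 5 had an unadjusted p under 0.05.

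Across the 143 miRNAs the differences at the 2 times ran against each other, with Pearson's r of -0.59 and Spearman's rho of -0.71 and opposite signs for 119. This is a description across miRNAs of 1 scaling, which are not independent, and carries no p. Without MTX replicate 1 at 34 days r was -0.42 and 84 had opposite signs, and without MTX replicate 2 r was -0.50. The distance between MTX replicates 1 and 2 at 34 days was set against that of each other pair across the 143 miRNAs. Its r with that of the MS pair at 34 days was 0.69, with that of the ANE pair at 1 hour (isoflurane in place of ether) 0.705, and with that of the PLA pair at 1 hour -0.55. With that of the PLA pair at 34 days it was -0.02, and with those of the 3 pairs of healthy animals it ran from -0.205 to -0.087. Over the other groups r ran in size from 0.451 to 0.705. Since replicate numbers have no order, the sign of these values has no meaning.

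**Figure D5:**
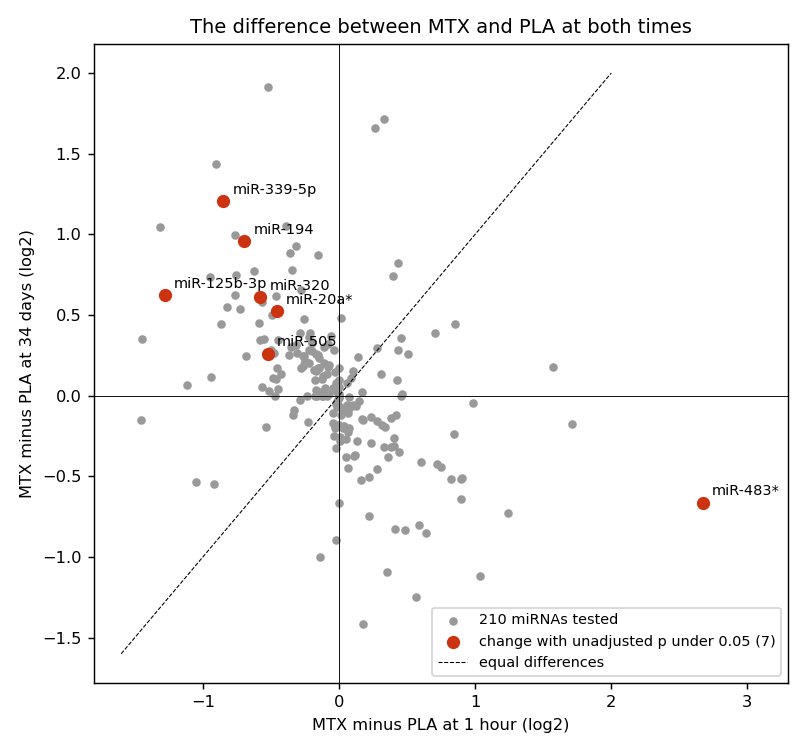
The difference MTX minus PLA (log2) at 1 hour (x) and at 34 days (y) for the 210 miRNAs tested. Filled large points are the 7 whose change had an unadjusted p under 0.05, none of them called, and the dashed line marks equal differences. Most points lie in the upper left and lower right of the plot, and 119 of the 143 miRNAs detected on all 4 arrays at 34 days have opposite signs.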

How the data were processed

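Groups came from the sample titles. The authors deposited scanner output of Agilent Feature Extraction 10.7.3.1 (per the file headers), in which the intensity of a miRNA is the background-corrected sum over its 20 spots on a linear scale with a call of detection, before any normalization across arrays. Every one of the 12046 undetected values equalled its listed error. The authors also deposited a table of log2 values, used as an alternative. Per the study's methods the raw signals were summarised by AgiMicroRNA, the submitters' processing notes name Agilent Feature Extraction 10.7 and RMA, and whether arrays were also normalized between each other is not given in the sources used here. In the comparison of that table with the scanner values, and all 24 columns fitted their own array better than any other.

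Intensities were scaled (factors from 0.452 to 1.42), floored at 5.765 and put on a log2 scale, and miRNAs detected on at least 3 of the 24 arrays were kept. The means of all 12 groups were estimated together over the 24 arrays in limma 3.58.1 (R 4.3.3, lmFit and eBayes) with 12 residual degrees of freedom. Contrasts were MTX minus PLA at 34 days and its change from 1 hour. Tests were two-sided with Benjamini-Hochberg adjustment over the 210 miRNAs, and a call is an adjusted p under 0.05. With 2 arrays against 2, permuting the arrays of a single miRNA cannot give a p under 0.05. No spot was saturated. The number of arrays limits the precision. The deviations of same-numbered arrays had a correlation of -0.02 at 34 days and -0.57 at 1 hour. At 1 hour MTX replicate 1 thus deviated in part with PLA replicate 2. The numbers carry no order and were not taken as pairs.

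miRNAs were named if called, past the threshold of the study or at an unadjusted p under 0.05, if among the 8 largest differences in either direction with detection on all 4 arrays, if detected on both arrays of one arm and neither of the other, or as list members. This comparison and the lists were chosen with earlier results of these data known. Alternatives were other scalings, signals, filters, floors, fits, the replicate block and leaving out each array. Mature sequences came from RefSeq (GRCr8), and names without an entry there are given as names only.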

Additional observations from a re-analysis of the deposited data

How the results depend on the processing

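Of 500 alternative values of the 23 named differences, 491 had the same direction and were uncalled, 3 had the same direction and were called, 4 had the opposite direction, and 2 were exactly 0 (miR-301b without MTX replicate 1, miR-1* with double the floor). The filters, the fits on fewer groups, array quality weights and the replicate block left the differences themselves as they were. Their directions could not change, so the 500 are not separate checks of direction. Without scaling 1 miRNA was called (miR-3085, 1.19, adjusted p 0.037 in limma) and 3 passed the study's threshold, the median of all miRNAs moving from 0.03 to 0.45. With no filter on detection 338 were called and 343 had an unadjusted p under 0.05. Of the calls, 334 were detected on no array and carry no measured level. Their values are the listed errors after scaling and the floor. miR-194 and miR-146b were called there (adjusted p 0.0242 and 0.04998) with their differences unchanged. The undetected miRNAs entered the same fit and adjustment, so these calls are not read as a result. By the mean spot signal miR-664 was at -0.043, miR-3085 at -0.12 and miR-1* at -0.094, and by normexp with quantile normalization and median polish miR-664 was at -0.0086, and the cause was not tested. 0 miRNAs passed the study's threshold with the percentile over all miRNAs, with quantile normalization, by the mean spot signal, by normexp, in the authors' table and with array quality weights, 2 passed with only the 4 arrays (miR-3558-3p and miR-3588) and 1 without the MS groups (miR-3588), neither count holding miR-339-5p. The count at an unadjusted p under 0.05, 5 as reported, was 3 by normexp, 3 among miRNAs detected on all 4 arrays, 9 with the floor at 0.5 times its value, 12 with only the 4 arrays, 8 with only the slide's 8 arrays and 10 without the MS groups. With the replicate block it was 8, with 0 calls. By the mean spot signal and without PLA replicate 2, 0 of the 5 reported were among those under 0.05. Crossing the numbers of PLA at 1 hour, chosen after seeing the data, gave 0 calls for the change from 1 hour.

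Leaving out each array in turn gave 0 calls at 34 days, from 2 (without PLA replicate 2) to 15 (without MTX replicate 2) at an unadjusted p under 0.05, 11 without MTX replicate 1, and from 0 to 5 past the study's threshold. The change from 1 hour had 0 to 2 calls. These were miR-138 and miR-425* without PLA replicate 1 at 1 hour and miR-194 without MTX replicate 1 at 1 hour. In addition 1 other, miR-328a*, was called with double the floor. The 5 miRNAs with the lowest p were compressed by normexp (miR-194 0.06, miR-409-3p 0.04, miR-339-5p 0.07, miR-339-3p 0.08, miR-146b -0.26), and their adjusted p ran from 0.0242 to 1 over all alternatives. The lowest of these adjusted p came with no filter on detection. 4 of the 5 lie near the floor, where an undetected value carries no measured level.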

Other observations

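Of the 42 star miRNAs tested, the minor arms of their precursors, 23 were higher in MTX and 15 lower (median difference 0.05), against 90 higher and 72 lower of the 168 others (median 0.03). miR-483*, named after its values were seen, had the largest change from 1 hour, at 5.95 and 5.51 in MTX at 1 hour against the floor and 3.59 in PLA (difference 2.67), and -0.67 at 34 days. Its change was -3.34 (SE 1.15, unadjusted p 0.012, adjusted p 0.599 in limma).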
